A study of Mus musculus with 40 samples.

Results

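The nuclear genes of oxidative phosphorylation were followed here through 40 libraries of ribosome-bound RNA from mouse astrocytes. Members were the gene symbols in the deposited counts that begin with Nduf, Uqcr, Cox4 to Cox8 or Atp5, together with Sdha to Sdhd and Cyc1, so the rule itself uses symbols and no measured value. The rule found 93 of 32531 genes. Of these, 36 encode subunits of complex I, 4 of complex II, 9 of complex III, 20 of complex IV and 15 of complex V. The remaining 9 comprise 7 Ndufaf assembly factors of complex I and Atp5s and Atp5sl, which carry the Atp5 symbol without being counted here as subunits. Ndufa4 and Ndufa4l2 were placed with complex IV, where their proteins reside, and 8 genes of complex IV (Cox4i2, Cox6a2, Cox6b2, Cox7a1, Cox7b2, Cox8b, Cox8c and Ndufa4l2) were treated as tissue isoforms. The mitochondrially encoded subunits were not analysed here.

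All mice were adults of the line Aldh1l1-EGFP/Rpl10a (JD130), in which the astrocyte promoter of Aldh1l1 drives an EGFP-tagged ribosomal protein, so polysomes of astrocytes could be pulled down with antibodies to EGFP (translating ribosome affinity purification, TRAP). Social defeat was 10 minutes of contact with a CD1 aggressor on each of 10 days, and tissue was collected 2 days after the last of them. Mice with a social interaction index above 1 formed the resilient group and those below 1 the stressed (susceptible) group, whereas control mice were group housed in the same room without defeat and also had an index above 1. Each library pooled 2 mice, or 4 to 6 for the nucleus accumbens (NAC). The prefrontal cortex (PFC) gave 3 control, 4 resilient and 5 stressed libraries, the hippocampus (HIP) 3, 3 and 5, the NAC 3, 3 and 4, and the caudate putamen (CPU) 2, 2 and 3. Pulled-down RNA can carry RNA of other cells, no unpurified tissue was analysed here, and in bulk RNA fewer cells of a type cannot be told apart from less RNA per cell.

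Complexes I to IV form the electron transport chain of the inner mitochondrial membrane. Complex I (NADH dehydrogenase) and complex II (succinate dehydrogenase, which is also an enzyme of the tricarboxylic acid cycle) pass electrons to ubiquinone, complex III passes them to cytochrome c, and complex IV (cytochrome c oxidase) to oxygen. Complexes I, III and IV pump protons, and complex V, the ATP synthase, uses the gradient to make ATP. Complex II is the only one of them with no mitochondrially encoded subunit. Astrocytes are known for a high rate of glycolysis, yet their processes hold many mitochondria that oxidise glutamate, fatty acids and pyruvate. Nuclear respiratory factor 1 (NRF1) and ETS-family factors such as GABP are classical regulators of these genes.

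Upstream sequence is shown for Sdhd, which was called in every alternative of the stress comparisons in the PFC, for Cox6a1 as a ubiquitous subunit with NRF1 motifs, and for the pair Cox8a and Cox8b, a ubiquitous and a tissue isoform whose levels differed most between regions. Each is the stretch without annotated exons nearest to the RefSeq start (GRCm38.p6, which is mm10), 5′ to 3′ on the strand of the gene, and capitals mark motif matches. Sdhd (chr9:50603850-50603909, minus strand) holds 1 ETS match, and just beyond it the first exon of Timm8b begins on the opposite strand. Cox6a1 (chr5:115348982-115349129, minus strand) holds 2 NRF1 matches. Cox8a (chr19:7217617-7217866, minus strand) and Cox8b (chr7:140900447-140900696, minus strand) hold neither motif, and they differ in CpG dinucleotides, of which Cox8a has 11 and Cox8b has 1.
Sdhd: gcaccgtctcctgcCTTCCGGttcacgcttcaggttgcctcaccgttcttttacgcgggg
Cox6a1: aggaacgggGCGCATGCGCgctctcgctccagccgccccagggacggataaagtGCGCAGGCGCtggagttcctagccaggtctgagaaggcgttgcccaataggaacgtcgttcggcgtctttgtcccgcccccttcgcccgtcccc
Cox8a: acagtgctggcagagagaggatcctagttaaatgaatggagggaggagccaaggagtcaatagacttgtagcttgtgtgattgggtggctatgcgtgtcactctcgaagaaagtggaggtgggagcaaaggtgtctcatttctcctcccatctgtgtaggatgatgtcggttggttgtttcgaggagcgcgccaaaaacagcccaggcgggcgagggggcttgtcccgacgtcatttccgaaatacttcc
Cox8b: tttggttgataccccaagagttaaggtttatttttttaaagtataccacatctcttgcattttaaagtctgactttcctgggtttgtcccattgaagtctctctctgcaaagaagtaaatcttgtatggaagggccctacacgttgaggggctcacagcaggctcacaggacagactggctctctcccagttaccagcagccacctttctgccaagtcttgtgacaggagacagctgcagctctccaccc

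Among the members, 76 of 93 matched the RefSeq promoter table. The NRF1 motif, the palindromic consensus matched in capitals in Cox6a1, lay on either strand of the 250 bases before the start in 13 of 64 subunit genes other than tissue isoforms (20.3%), in 0 of 4 tissue isoforms and in 1144 of 27025 genes of the table (4.23%). The ETS motif CCGGAAG lay there in 12 of the 64 (18.8%), in 0 of the 4 isoforms and in 2115 of all genes (7.83%). Sdhd held 1 match to each motif in its 250 bases, its NRF1 match lying outside the stretch shown. These are letter matches and say nothing of binding.

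Libraries did not all measure the members alike. Total counts in genes ran from 21.3 M to 33.0 M across libraries (median 25.6 M), and the members took 2.95% to 4.43% of them with a median of 3.66%. Subunit transcripts are short, with a median of 737 nucleotides against 2682 for the genes tested in the PFC. In each library, log2 CPM (counts scaled to a common library total) minus the control mean of the region was therefore correlated with log2 transcript length across genes, which are not independent replicates. The correlation reached 0.495 and 0.444 in PFC stressed replicates 4 and 5, 0.496 and 0.552 in HIP stressed replicates 2 and 3, and 0.413 in NAC stressed replicate 4. In these 5 libraries the median subunit differed from the control mean by −0.75, −0.53, −0.82, −0.83 and −0.56 on the log2 scale. Genes for cytosolic ribosomal proteins, also short, showed medians of −0.63, −0.41, −0.71, −0.74 and −0.41 in the same libraries. The next highest correlations were 0.273 in HIP stressed replicate 4 and 0.272 in CPU stressed replicate 3, with subunit medians of −0.09 and −0.40, so the subunit median did not follow the correlation in every library. Several results in the PFC and HIP are given with and without these libraries. The deposited libraries also came in 2 naming forms, whose meaning is not given in the sources used here, and the 5 libraries with a correlation above 0.4 all had the form that writes the region as a code of 3 letters.

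**Figure D1:**
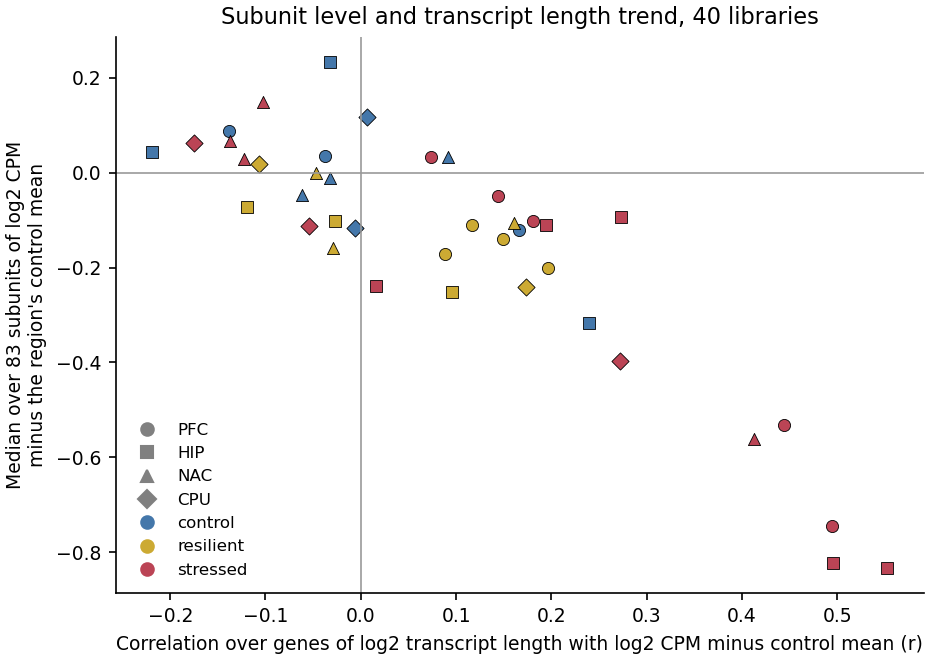
Each point is 1 of 40 libraries. The x axis gives the correlation (r) across genes between log2 transcript length and log2 CPM minus the control mean of the region, the y axis the median over 83 subunits of log2 CPM minus that mean, shapes give the region and colours the condition. The lower right holds PFC stressed replicates 4 and 5, HIP stressed replicates 2 and 3 and NAC stressed replicate 4, all with r above 0.4 and medians of −0.53 or lower.

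The subunits were abundant in every library. Levels between genes are compared as CPM per kb of transcript, as the median over the 40 libraries. Uqcr11, a small subunit of complex III, was highest at 2455 CPM per kb, followed by Cox8a at 2003, Cox6b1 at 1541 and Ndufa4 at 1399, all of complex IV. The membrane c-ring gene Atp5g3 stood at 1334, above its paralogs Atp5g1 at 138 and Atp5g2 at 135, which encode the same mature protein. The length used is the median over a gene's annotated transcripts, 2675 nucleotides for Atp5g1, 718 for Atp5g3 and 586 for Atp5g2. Before division by length the medians were 958 CPM for Atp5g3, 370 for Atp5g1 and 79.3 for Atp5g2. The catalytic β subunit Atp5b (1149 CPM per kb) and the regulatory subunit Cox4i1 (1214) were in the range of Atp5g3. In complex II the iron-sulfur subunit Sdhb was highest at 624, then the membrane anchors Sdhd at 385 and Sdhc at 227 and the flavoprotein Sdha at 214. The largest subunit of complex I, Ndufs1, was the lowest of that complex at 56.7. The 7 assembly factors lay between 14.1 for Ndufaf4 and 58.9 for Ndufaf2, of which Ndufaf2 and Ndufaf3 (57.8) were just above Ndufs1 and the other 5 below it.

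Each ubiquitous subunit of complex IV stood far above its tissue isoform. Cox6b1 compared with 29.0 CPM per kb for Cox6b2, Cox4i1 with 21.1 for Cox4i2, Cox8a with 9.32 for Cox8b, Cox6a1 (1119) with 2.43 for Cox6a2, and Ndufa4 with 0.748 for Ndufa4l2. Cox7a2 (645) and Cox7a2l (82.1) exceeded the heart and muscle isoform Cox7a1 (25.7). The testis isoform Cox8c had 9 counts in all 40 libraries together and was the only member that did not pass the filter on low counts in the fits, so 92 members were tested in each. Of the summed CPM of all subunits, complex I took a median of 33.5% over libraries (range 29.7% to 34.6%), complex V 27.2%, complex IV 18.8%, complex III 13.9% and complex II 6.56%. Some members share long stretches with other genes: in 8 of 93, over 20% of the 50-base words of their transcripts also occur in other genes, so the counts of Ndufaf2 (64.1%), Atp5o (41.6%), Atp5g2 (38.35%), Ndufb6 (31.6%) and 4 more (Ndufa13, Uqcrb, Cox7c, Ndufs5) are uncertain.

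**Figure D2:**
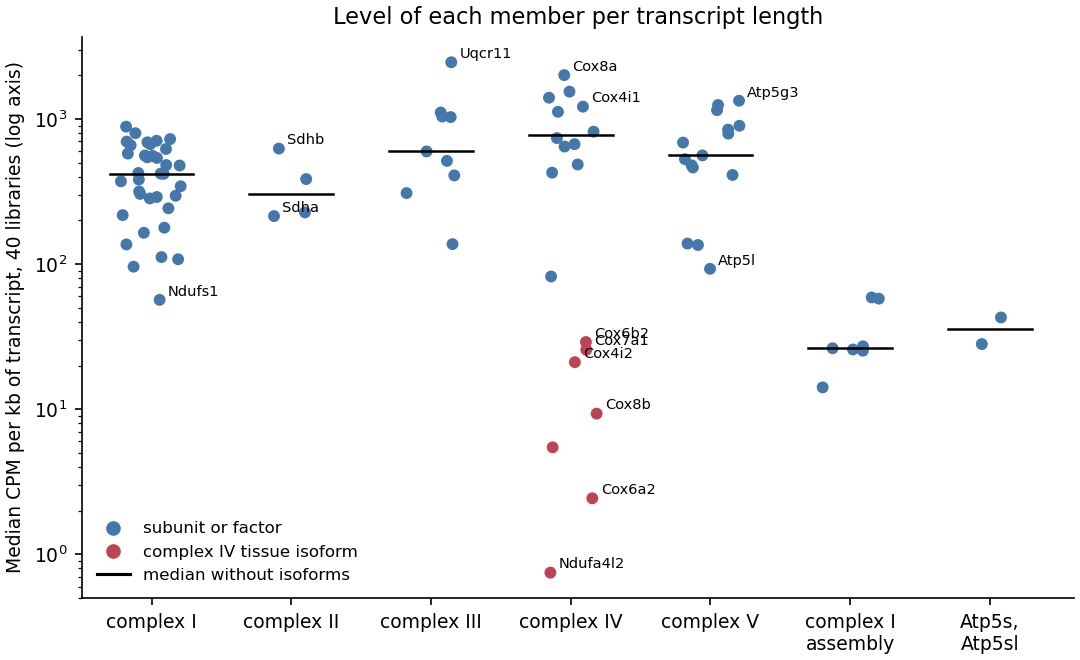
Each point is 1 member, the y axis (log) its median CPM per kb of transcript over 40 libraries, grouped by complex. Black lines mark medians without tissue isoforms; Cox8c, with a median of 0, is not drawn. Tissue isoforms of complex IV lie between 0.748 and 29.0, below every other complex IV subunit.

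In control mice, 4 tissue isoforms of complex IV and 5 other members differed between regions. A gene is called below when its edgeR quasi-likelihood p, adjusted over all genes of the fit by Benjamini-Hochberg, is under 0.05. The joint test of the 4 regions called 9 of 92 members, against 18.8% of all 16053 genes tested. They were Cox8b, Cox7a1, Cox4i2, Cox6b2, Sdhd, Atp5s, Atp5l, Cox4i1 and Ndufaf4. Core subunits such as Ndufs1, Ndufv1, Uqcrc1 and Atp5b were not among them.

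Cox8b, the heart and muscle isoform of subunit VIII, was measured at 5.27, 90.6 and 69.4 CPM in the 3 HIP control libraries. In the control libraries of the PFC it was 2.74, 2.59 and 2.44, in the NAC 3.88, 5.51 and 4.28, and in the CPU 2.93 and 3.58. The HIP was high in 2 of 3 libraries, and HIP replicate 1 overlapped the NAC. The contrast of HIP with the mean of the other 3 regions gave a log2 fold change of 4.03 ± 0.536 (SE, adjusted p = 0.00106). In this contrast 8 members were called higher and 1 lower, against 8.78% and 4.68% of all genes. Cox8b was called in each of the 13 alternatives tried, at 3.27 to 4.57.

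Transcripts of the choroid plexus, the secretory epithelium of the ventricles, moved with Cox8b from library to library. Ttr, which encodes transthyretin, stood at 48.4, 7201 and 6440 CPM in HIP control replicates 1 to 3, and Kcne2, an epithelial potassium channel subunit, at 0.359, 52.3 and 41.1. In the 5 HIP stressed libraries Cox8b was 13.2, 40.4, 44.3, 2.38 and 44.1 CPM, where Ttr was 160, 6143, 9069, 49.5 and 10340. In the resilient libraries Cox8b was 9.86, 16.5 and 14.0 and Ttr 800, 1786 and 421. In both the control and the stressed group, the libraries with Ttr of 6143 CPM or more had more Cox8b than the others. Of 8 choroid plexus and ependymal markers, 7 were called higher in the HIP of control mice, against 8.78% of all genes. The summed level of the 8 markers was 83.4 to 7556 CPM there against 11.5 to 13.1 in the PFC. Their part in the Cox8b result was not tested.

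Cox6b2, known as a testis isoform, was also higher in the HIP, at 23.3, 44.8 and 31.1 CPM against 14.7, 14.2 and 7.12 in the PFC (1.42 ± 0.245 against the other 3 regions, adjusted p = 0.00381). All 3 HIP control libraries exceeded those of the other regions. Cox7a1 was higher by 0.85 ± 0.169 (adjusted p = 0.00757), at 14.9, 27.2 and 23.4 CPM, and its call was lost without HIP control replicate 2 (0.66, adjusted p = 0.0509). Both were lowest in the HIP replicate with little Ttr.

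Cox4i2, the lung and hypoxia-responsive isoform of subunit IV, had the opposite order. In control libraries it was 49.0 and 31.9 CPM in the CPU, 26.9, 31.2 and 16.0 in the NAC, 16.4, 14.1 and 14.2 in the PFC, and 10.3, 4.07 and 2.42 in the HIP. The 3 HIP control libraries lay below every control library of the other regions. Against the other 3 regions together, the HIP had a log2 fold change of −2.14 ± 0.412 (adjusted p = 0.00666), a call kept in all 13 alternatives at −2.91 to −1.78. The CPU was higher by 1.68 ± 0.370 (adjusted p = 0.0233), the 1 member called in that contrast, where 3.41% of all genes were called higher and 5.61% in either direction. The CPU call was lost without CPU control replicate 1 (1.31, adjusted p = 0.352), CPU control replicate 2 (1.96, adjusted p = 0.0643) or PFC control replicate 2 (1.67, adjusted p = 0.0514). Cox4i2 is also known from pericytes, and the summed level of 8 mural and muscle markers in control libraries was 65.7 to 69.2 CPM in the CPU, 38.2 to 68.8 in the NAC, 34.8 to 62.8 in the HIP and 25.0 to 30.6 in the PFC. That order is not the order of Cox4i2, since the HIP was lowest for Cox4i2 and the PFC for the markers; the part of these cells was not tested.

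**Figure D3:**
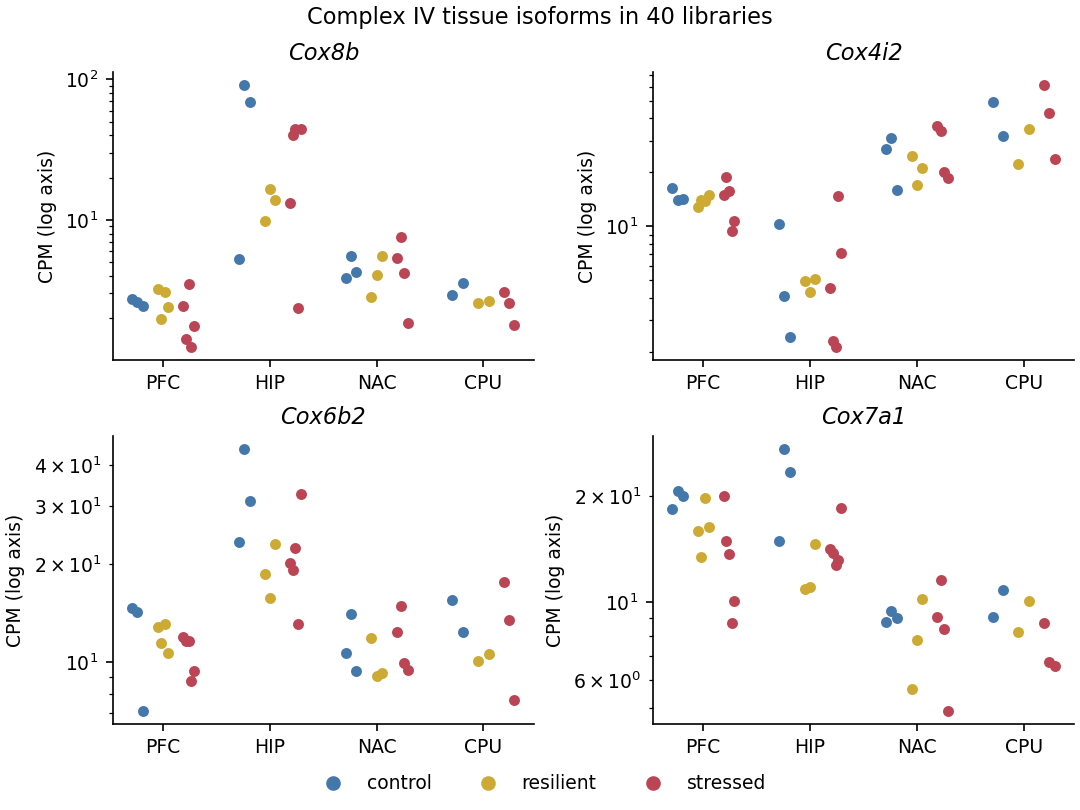
Levels of 4 complex IV tissue isoforms in CPM (log axes, which differ between panels), 1 point per library, by region and coloured by condition. Cox8b and Cox6b2 are highest in HIP libraries, with Cox8b from 2.38 to 90.6 CPM among them, and Cox4i2 is lowest there.

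In the same HIP contrast the ubiquitous members Atp5l (0.42), Ndufa1 (0.45), Uqcr10 (0.41), Atp5h (0.33) and Cox4i1 (0.32) were called higher. The HIP count fell from 9 to 4 (Cox8b, Cox6b2, Cox7a1 and Cox4i2) when each library's length trend was removed and to 5 without HIP control replicate 2, PFC control replicate 1 or 2 or CPU control replicate 1. It was 16 without HIP control replicate 3. In the PFC, 4 members were called higher and none lower, against 6.00% and 6.72% of all genes. Sdhd led them, at 694, 690 and 644 CPM in the PFC against 503, 533 and 471 in the HIP, 467, 420 and 527 in the NAC and 417 and 472 in the CPU. All 3 PFC libraries exceeded every control library of the other regions, and the log2 fold change was 0.51 ± 0.097 (adjusted p = 0.00797), and 0.28 when all 40 libraries were fitted with condition as a term. The others were Ndufaf4 (0.57 ± 0.134, adjusted p = 0.0202), Cox7a1 (0.64 ± 0.170, adjusted p = 0.0335) and Atp5s (0.33 ± 0.087, adjusted p = 0.0323, but 0.083 and not called over all 40 libraries). No member stayed called without PFC control replicate 1 (Sdhd 0.49, adjusted p = 0.0571) or replicate 2 (Sdhd 0.50, adjusted p = 0.0535). In the NAC, Cox7a1 was the 1 member called lower (−0.83 ± 0.184, adjusted p = 0.0419), against 0.660% of all genes called lower, 1.51% higher and 2.17% in all, and leaving out any of 9 of the 11 control libraries ended that call.

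The design asks which transcripts differ in stressed mice from both control and resilient mice. In the PFC, Sdhd and Sdhc, the 2 membrane anchors of complex II, and Atp5s were called lower in stressed mice than in both. Cyc1 and a few subunits of complexes I and V were called lower against control only. Of the calls against control, only that of Sdhd stayed without control replicate 1. Against control, 12 members were called lower and 1 higher of 92, where 11.7% of all 15491 genes tested were called lower and 16.4% higher, in all 28.1%. The share of members called lower is close to that background, and the median of the members was −0.24 against 0.04 over all genes. Below 0 lay 82 of 92 members. Complex II had 2 of its 4 genes called, complex III 1 of 9, complex I 3 of 36, complex V 2 of 15 and the complex I assembly factors 2 of 7, all lower, with both Atp5s and Atp5sl lower as well. Complex IV had 1 of 19, which was higher.

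Sdhd, which encodes the small cytochrome b subunit that anchors succinate dehydrogenase in the membrane, had the smallest p of the members (gene at chr9:50596357-50603812). It stood at 694, 690 and 644 CPM in PFC control libraries, at 608, 633, 596 and 613 in resilient libraries, and at 495, 486, 459, 398 and 433 in stressed libraries. The 3 groups did not overlap, with every stressed library below every resilient one and every resilient library below every control. Cyc1 had the same order. Of 92 members, stressed lay wholly below control in 19, stressed below resilient in 9 and resilient below control in 27. Such separation was not counted over all genes, so these counts are not read as a trait of the members. It was most frequent for resilient below control, a comparison in which no gene was called. Group means of Sdhd were 676 ± 27.9 CPM (SD, n = 3) for control, 613 ± 15.4 (n = 4) for resilient and 454 ± 39.6 (n = 5) for stressed libraries, the last 32.8% below the first. The log2 fold change was −0.59 ± 0.102 against control (adjusted p = 0.00227) and −0.42 ± 0.095 against resilient (adjusted p = 0.00819). Both comparisons share the stressed libraries. Resilient against control gave −0.16 ± 0.108 (adjusted p = 1).

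Sdhd was called in all 22 alternatives of each comparison. Without stressed replicates 4 and 5 it was −0.51 ± 0.072 against control (adjusted p = 8.49e-05) and −0.34 ± 0.068 against resilient (adjusted p = 0.00112). With the length trend removed it was −0.45 ± 0.058 and −0.33 ± 0.053. Within the naming form of stressed replicates 1 to 3, which had 1 control and 1 resilient library, it was −0.43 and −0.38. Leaving out 1 library at a time gave −0.63 to −0.54 against control, with an adjusted p of at most 0.0191, and −0.47 to −0.38 against resilient, with at most 0.0330.

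Sdhc, the other membrane anchor of complex II, was also lower. It stood at 559, 560 and 498 CPM in control libraries, 494, 519, 491 and 511 in resilient libraries and 422, 442, 410, 327 and 365 in stressed libraries. Stressed libraries lay below all others, while control and resilient libraries overlapped. The log2 fold change was −0.47 ± 0.117 against control (adjusted p = 0.0124) and −0.35 ± 0.108 against resilient (adjusted p = 0.0329). The first call was lost without control replicate 1 (−0.44, adjusted p = 0.0670) or 2 (−0.45, adjusted p = 0.0530). The second was lost without resilient replicate 1 (−0.35, adjusted p = 0.0774), 2 (−0.34, adjusted p = 0.0898), 3 (−0.37, adjusted p = 0.0582) or 4 (−0.34, adjusted p = 0.0643).

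The catalytic subunits of complex II did not pass the test. Sdhb, which carries the iron-sulfur clusters, stood at 862, 869 and 832 CPM in control libraries and 868, 823, 791, 584 and 617 in stressed libraries (−0.23 ± 0.151, adjusted p = 0.271). Sdhb was −0.06 ± 0.085 without stressed replicates 4 and 5 (adjusted p = 0.623) and −0.55 ± 0.102 without replicates 1 to 3 (adjusted p = 4.17e-04). Sdha, the flavoprotein that oxidises succinate, stood at 609, 609 and 627 CPM in control libraries and 532, 587, 514, 881 and 871 in stressed libraries (0.11 ± 0.171, adjusted p = 0.639). Stressed replicates 1 to 3 were below all controls for Sdha and replicates 4 and 5 above them. For Sdhb, replicates 4 and 5 were instead below replicates 1 to 3, and replicate 1 lay among the controls. Against control, Sdha was −0.19 ± 0.095 without replicates 4 and 5 (adjusted p = 0.134) and 0.47 ± 0.108 without replicates 1 to 3 (adjusted p = 0.00223). Its transcript, at 2900 nucleotides, is the longest among the subunits.

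**Figure D4:**
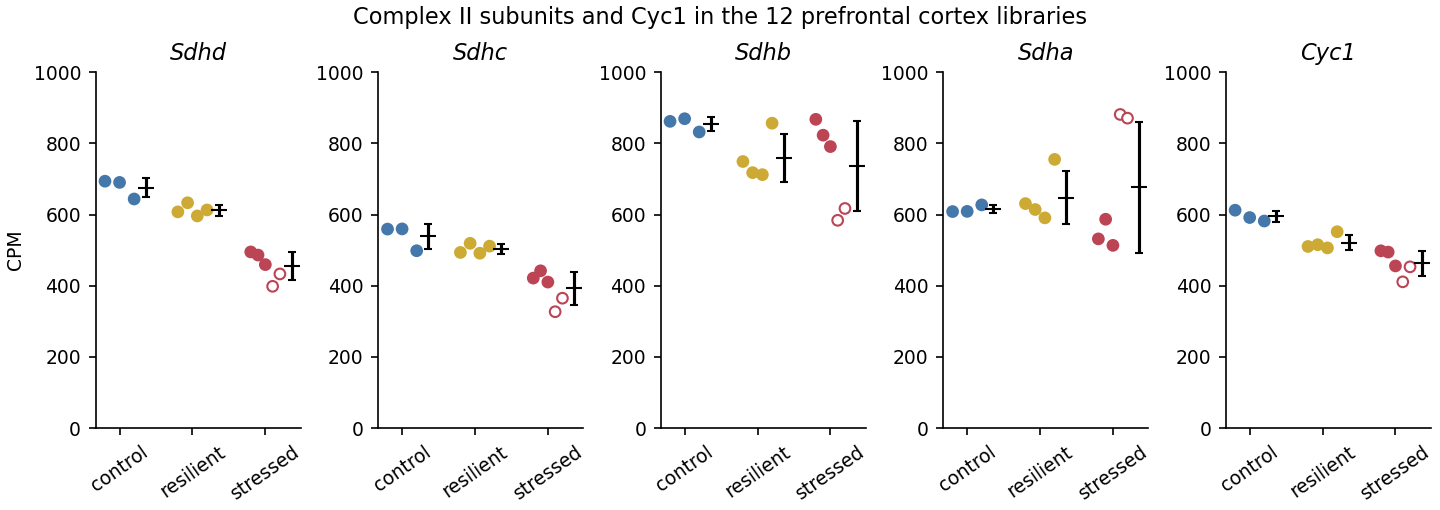
CPM of the 4 complex II genes and Cyc1 in the 12 PFC libraries, 1 point per library, with mean and SD as bars beside each group. Open points are stressed replicates 4 and 5. For Sdhd the 3 groups do not overlap, from 694 CPM at the top of the control group to 398 at the bottom of the stressed group. The groups do not overlap for Cyc1 either, and for Sdha the open points lie above all others.

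In complex III, Cyc1, the cytochrome c1 that hands electrons to cytochrome c, was called lower against control. It stood at 612, 592 and 582 CPM in control libraries, 510, 515, 506 and 552 in resilient libraries and 498, 495, 456, 411 and 453 in stressed libraries. Every defeated library, resilient or stressed, lay below every control. The log2 fold change was −0.38 ± 0.099 (adjusted p = 0.0151), and −0.31 ± 0.075 without stressed replicates 4 and 5 (adjusted p = 0.00387). The call was lost without control replicate 1 (−0.36, adjusted p = 0.0779). Against resilient the change was −0.17 ± 0.092 (adjusted p = 0.195).

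In complex I, Ndufv2, a subunit of the NADH-binding module, was measured at 670, 650 and 601 CPM in control and at 540, 554, 518, 412 and 442 in stressed libraries (−0.39 ± 0.121, adjusted p = 0.0317). Ndufb10, of the membrane arm, was at 627, 594 and 548 against 520, 473, 472, 356 and 410 (−0.41 ± 0.128, adjusted p = 0.0310). Ndufs3, of the ubiquinone-reducing module, was at 261, 255 and 240 against 226, 214, 193, 178 and 188 (−0.35 ± 0.108, adjusted p = 0.0314). For all 3 genes every stressed library lay below every control library, as it did in 19 of 92 members. This separation was not counted over all genes. The assembly factors Ndufaf4 (−0.50 ± 0.146, adjusted p = 0.0246) and Ndufaf6 (−0.43 ± 0.126, adjusted p = 0.0234) were called lower too, with 80.1, 72.9 and 61.8 CPM of Ndufaf4 in control and 60.7, 56.1, 50.4, 41.1 and 47.25 in stressed libraries. In complex V the calls were Atp5f1, the peripheral stalk subunit b (−0.29 ± 0.095, adjusted p = 0.0402), and Atp5e, the ε subunit of the central stalk (−0.50 ± 0.167, adjusted p = 0.0418). Beside them Atp5s (−0.30 ± 0.089, adjusted p = 0.0244) and Atp5sl (−0.31 ± 0.092, adjusted p = 0.0273) were called lower.

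Other subunits fixed by their role did not pass the test against control. In complex I, Ndufs1, which carries iron-sulfur clusters of the NADH module, gave 0.35 ± 0.231 (adjusted p = 0.273), Ndufs7 gave −0.33 ± 0.146 (adjusted p = 0.107) and Ndufb8 gave −0.36 ± 0.158 (adjusted p = 0.102). In complex III the core protein Uqcrc1 gave 0.02 ± 0.0997 (adjusted p = 0.907), the Rieske protein Uqcrfs1 −0.22 ± 0.110 (adjusted p = 0.153) and the small subunit Uqcrq −0.39 ± 0.208 (adjusted p = 0.174). In complex V the catalytic Atp5b gave 0.11 ± 0.116 (adjusted p = 0.492), at 2198, 2138 and 2286 CPM in control libraries. Ndufv1 gave 0.31 ± 0.110 (adjusted p = 0.0527), with every stressed library above every control, and Atp5a1 gave 0.38 ± 0.151 (adjusted p = 0.0765).

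Many of the calls against control depended on single libraries. Without control replicate 3, 12 of the 13 stayed called. Without control replicate 1, Sdhd was the only member called of 92, and without control replicate 2 Sdhd and Cyc1 were. Without stressed replicate 1 the count was 21, and 12 of the 13 members were among them. Without resilient replicate 1, 2 or 3 and without stressed replicate 3, 10, 10, 10 and 9 of the 13 stayed called; Atp5e, Atp5f1 and Ndufa4l2 were lost each time, and Ndufs3 without stressed replicate 3. Atp5e was also lost without resilient replicate 4 or stressed replicate 5, and Ndufa4l2 without control replicate 3 or stressed replicate 1 or 2.

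The member called higher was Ndufa4l2, a hypoxia-induced paralog of Ndufa4, at a very low level of 0.736, 0.627 and 0.467 CPM in control and 1.39, 1.32, 1.05, 0.852 and 0.9425 in stressed libraries (0.86 ± 0.295, adjusted p = 0.0463). Its resilient libraries, at 1.21, 1.10, 1.08 and 1.68 CPM, were also above every control library, without passing the test (1.03 ± 0.304, adjusted p = 1). None of the ubiquitous complex IV subunits was called. Cox8a gave −0.36 ± 0.214 (adjusted p = 0.213), Cox7a2 gave −0.32 ± 0.190 (adjusted p = 0.211), Cox5a −0.22 ± 0.173 (adjusted p = 0.342) and Cox6c −0.07 ± 0.242 (adjusted p = 0.848). Cox4i1 was 892.7 ± 206 CPM (SD, n = 5) in stressed and 1106 ± 58.9 (n = 3) in control libraries (−0.32 ± 0.178, adjusted p = 0.191), with stressed replicates 4 and 5 at 624.9 and 720 CPM and the other 3 between 1002 and 1085.

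Against resilient mice, 6 members were called in stressed mice, 3 lower and 3 higher, where 10.7% and 14.3% of all genes were, in all 25.0%. The median of the members was −0.07 against 0.03 over all genes. Lower were Sdhd, Sdhc and Atp5s, and these 3 were also called against control, which is 23.1% of the 13 called there and 3 of the 6 called here. Atp5s stood at 80.3, 77.9, 80.2 and 81.8 CPM in resilient, 78.4, 76.1 and 74.9 in control and 63.0, 65.3, 65.3, 62.9 and 56.7 in stressed libraries. Every stressed library lay below all others, and the log2 fold change was −0.35 ± 0.082 (adjusted p = 0.010), called in all 22 alternatives at −0.43 to −0.28. Its call against control was lost without control replicate 1 (−0.28, adjusted p = 0.105) or 2 (−0.31, adjusted p = 0.0674).

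Higher than in resilient mice were Ndufv1, Atp5a1 and Cox6a2. Ndufv1, the flavin-containing subunit of complex I that takes electrons from NADH, was at 452, 462, 436, 436 and 447 CPM in stressed libraries and at 330, 325, 322 and 414 in resilient libraries (0.36 ± 0.101, adjusted p = 0.0212). All stressed libraries lay above all resilient ones, of which replicate 4 was apart from the other 3. Within the naming form of stressed replicates 1 to 3, which holds that resilient library, Ndufv1 was 0.096 (adjusted p = 0.470). Atp5a1, the α subunit of the ATP synthase, was at 1210, 1306, 1186, 1561 and 1654 CPM against 999, 919, 936 and 1310 (0.41 ± 0.138, adjusted p = 0.0464). Without stressed replicates 4 and 5, in which it was highest, it was 0.25 ± 0.119 and not called (adjusted p = 0.110). In the same naming form its change was −0.11, of opposite sign (adjusted p = 0.425). Cox6a2, the heart and muscle isoform of subunit VIa, was at 4.29, 3.62, 3.79, 1.88 and 1.93 CPM against 1.40, 1.77, 2.20 and 1.04 (0.97 ± 0.309, adjusted p = 0.0367). Stressed replicates 1 to 3 were high and replicates 4 and 5 overlapped the resilient group, so that it was 1.29 with stressed replicates 1 to 3 alone and 0.24 with stressed replicates 4 and 5 alone.

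Of these 6 calls, Sdhd and Atp5s stayed without any single library. Ndufv1 was lost without resilient replicate 1 (0.34, adjusted p = 0.0697), 2 (0.33, adjusted p = 0.0766) or 3 (0.32, adjusted p = 0.0674). Atp5a1 was lost without control replicate 1 or 2, resilient replicate 1, 2 or 3, or stressed replicate 2, 4 or 5, at 0.34 to 0.42. Cox6a2 was lost without resilient replicate 1, 2 or 4, or stressed replicate 1, 2 or 3, at 0.82 to 1.02.

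The 2 kinds of stressed PFC libraries gave unlike pictures of the whole set. Stressed replicates 4 and 5 were below replicates 1 to 3 in 77 of 92 members (83.7%) and above them in 5 (5.43%), against 30.7% and 36.7% of all genes tested. Without replicates 4 and 5, 21 members were called against control, 16 lower and 5 higher, where 37.8% of all genes were called; all 13 members called with the full group were among them, and the median of the members was −0.07. Against resilient, 25 were then called (38.1% of all genes), 21 of them higher, 13 of these among the 36 genes of complex I. Without replicates 1 to 3 instead, 81 members were called against control, 77 lower and 4 higher (48.7% of all genes), and 79 against resilient, 74 of them lower (46.0% of all genes). The shares of all genes called in these fits are for either direction and were not split. By complex the medians against control without replicates 1 to 3 were −0.67 for complexes I and V, −0.62 for complex II, −0.70 for complex III and −0.74 for complex IV, and without replicates 4 and 5 they were −0.06, −0.02, −0.27, −0.13 and −0.01 in the order I, V, II, III and IV. Sdhd and Sdhc were called lower in both subsets and in both comparisons.

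**Figure D5:**
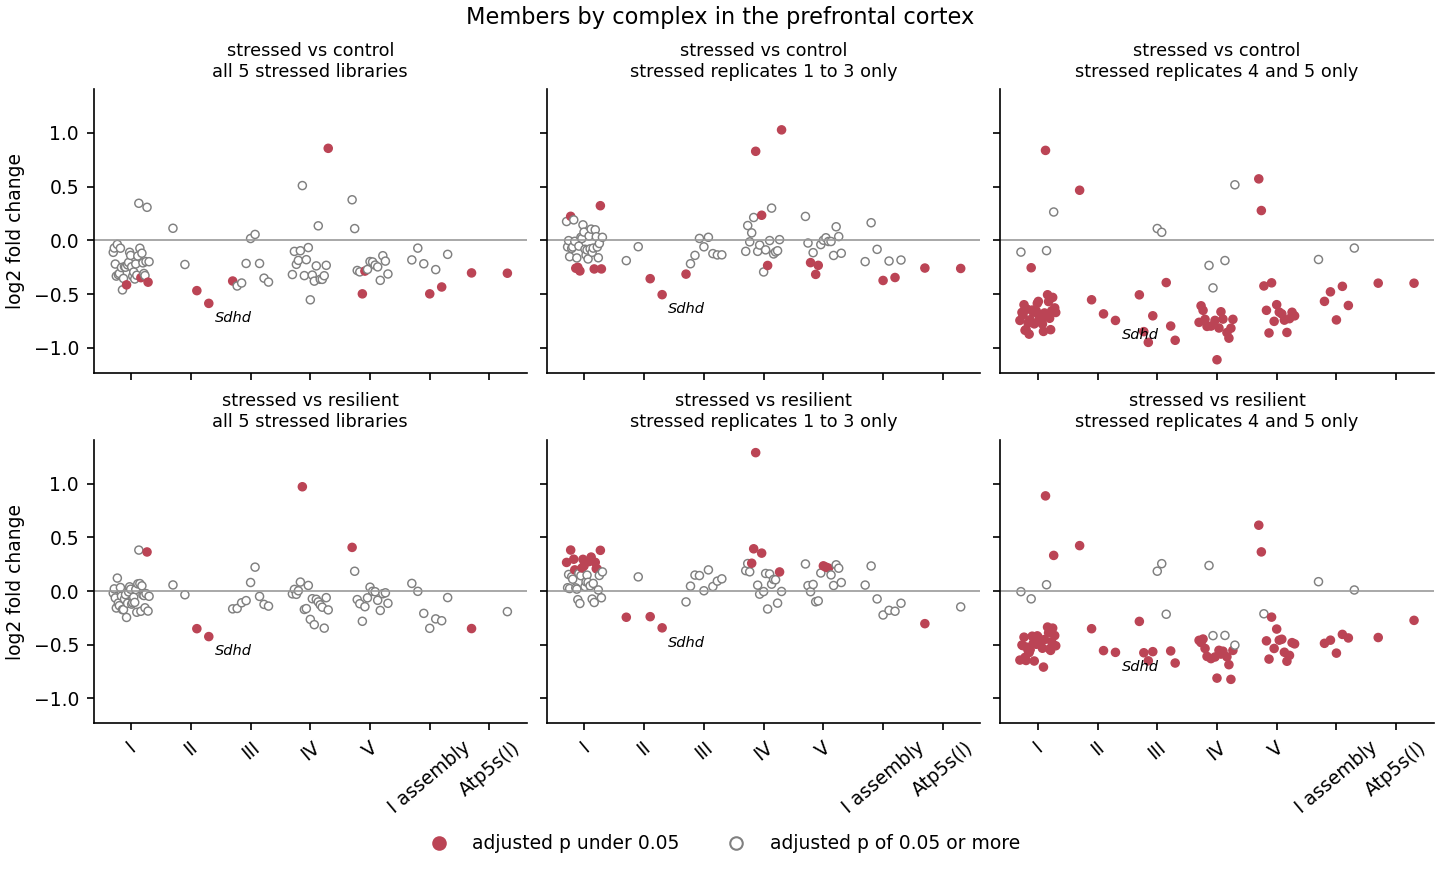
Log2 fold change of 92 members in the PFC, grouped by complex, against control (top) and resilient (bottom), for all stressed libraries, for replicates 1 to 3 and for replicates 4 and 5. Filled points have an adjusted p under 0.05; their number against control is 13 with all stressed libraries, 21 with replicates 1 to 3 and 81 with replicates 4 and 5.

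Other RNA moved with the PFC groups. The summed level of 12 neuronal markers was 2070 to 2807 CPM in control, 2410 to 2875 in resilient and 2975 to 5457 in stressed libraries, which did not overlap the others. Of the 12, 9 were called higher against control, where 16.4% of all genes were. Of 8 microglial markers 6 were called higher, with summed levels of 14.4 to 22.8 CPM in control and 25.5 to 70.6 in stressed libraries. Of 12 astrocyte markers 6 were called higher, with 35280 to 36710 CPM in control and 29270 to 60340 in stressed libraries. Stressed replicates 1 to 3 had astrocyte sums of 60340, 57710 and 54830 CPM and neuronal sums of 2975, 3192 and 3117. Replicates 4 and 5 had lower astrocyte sums, at 29270 and 35380 CPM, and higher neuronal sums, at 5457 and 5079. Endothelial markers (3 of 7 called higher) summed to 10.95 to 16.4 CPM in control and 23.6 to 59.0 in stressed libraries, and mural and muscle markers (3 of 7) to 25.0 to 30.6 and 38.1 to 76.5, without overlap in either list. Of 8 oligodendrocyte markers 3 were called higher, with 797 to 1019 and 766 to 1136 CPM. Choroid plexus and ependymal markers were at 11.5 to 13.1 and 9.28 to 55.7 CPM. The part of other cells in the results on the members was not tested.

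Genes of the same organelle in the PFC were compared as lists. Against control, 11.7% of all genes tested were called lower and 16.4% higher. Of 76 mitochondrial ribosomal protein genes, 20 were called lower and 0 higher against control (median −0.30, all genes 0.04). Of 33 assembly factors outside the rule, 9 were called lower and 1 higher (median −0.30), and of 16 regulators of mitochondrial biogenesis 7 were lower and 1 higher (median −0.27). Of 17 genes of the tricarboxylic acid cycle and pyruvate dehydrogenase, 0 were called by edgeR, with a median of −0.04. Of 12 electron and nucleotide carriers 1 was called lower. Of 94 cytosolic ribosomal protein genes 7 were called lower and 0 higher (median −0.18). Against resilient the counts were 6 lower and 1 higher for mitochondrial ribosomal proteins, 5 and 1 for the assembly factors, 5 and 1 for the regulators, and 0 for the cycle. Of all genes, 10.7% were called lower and 14.3% higher in that comparison.

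Resilient mice did not differ from control mice in any called gene of the PFC (0.00% of all genes; 0 members by edgeR and by DESeq2, 2 at an unadjusted p under 0.05, where 2.35% of all genes were). The median of the members was −0.17, and 87 of 92 lay below 0, a count not set against all genes. In resilient replicates 1 to 4 the median subunit was −0.17, −0.20, −0.14 and −0.11 from the control mean in log2 CPM. Cytosolic ribosomal protein genes, also short, had medians of −0.23, −0.28, −0.19 and −0.19 there, and all genes 0.01, 0.04, 0.06 and 0.02.

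In the other regions no gene was called between conditions (0.00% in each of the 9 comparisons, 0 members by edgeR and by DESeq2). In the HIP the members of stressed mice lay at a median of −0.38 against control (all genes 0.05) and −0.25 against resilient, and 23 and 5 had an unadjusted p under 0.05, all below 0, where 3.00% and 4.85% of all genes did in that direction. Without stressed replicates 2 and 3 the medians were −0.15 and −0.04. In stressed replicates 2 and 3 astrocyte markers summed to 27380 and 26500 CPM and neuronal markers to 4899 and 4446. Stressed replicates 1, 4 and 5 had astrocyte sums of 42600, 58710 and 55950 CPM and neuronal sums of 2477, 2049 and 1391. The part of other cells was not tested. Cytosolic ribosomal protein genes had medians of −0.34 and −0.18 with all libraries. The smallest p against control was that of Atp5l, a membrane subunit of the ATP synthase, at −0.56 ± 0.176 (adjusted p = 0.525). Without stressed replicates 2 and 3 it was −0.37 (adjusted p = 0.937), and with the length trend removed −0.18 (adjusted p = 0.800). Sdhd in the HIP was 503, 533 and 471 CPM in control, 537, 475 and 535 in resilient and 482, 307, 282, 433 and 412 in stressed libraries, and the groups overlapped. Its log2 fold change was −0.38 ± 0.188 against control (adjusted p = 0.525) and −0.43 ± 0.188 against resilient (adjusted p = 0.283). Without stressed replicates 2 and 3 it was −0.18 ± 0.135 and −0.24 ± 0.135.

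In the NAC no member reached an unadjusted p under 0.05 in any of the 3 comparisons, and the medians were −0.04 for stressed against control, 0.05 for stressed against resilient and −0.09 for resilient against control. Sdhd was −0.04 ± 0.141 for stressed against control. In the CPU, with 2 control libraries, 17 members had an unadjusted p under 0.05 for stressed against control, 12 lower and 5 higher, 1 for stressed against resilient and 17 for resilient against control. Of all genes, 9.56%, 2.55% and 8.25% did. The smallest p for resilient against control was that of Atp5s, at 0.62 ± 0.137 (adjusted p = 0.558). For stressed against control it was that of Cox6a2, at −1.54 ± 0.342 (adjusted p = 0.457), the opposite sign to the PFC comparison with resilient. Sdhd was −0.01 ± 0.114.

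Whether the effect of stress differed between the 4 regions was tested directly over all 40 libraries. No gene was called, for stressed against control or against resilient (0.00% of 16759 genes), and 9 and 1 members had an unadjusted p under 0.05, as did 12.6% and 6.97% of all genes. For Sdhd the adjusted p was 0.327 for stressed against control and 0.718 for stressed against resilient, so its fall in the PFC was not shown to differ from the other regions. Atp5s had the smallest p for stressed against control (adjusted p = 0.173). It was called there with the length trend removed (adjusted p = 0.0444) or without HIP stressed replicate 1 (adjusted p = 0.00885).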

How the data were processed

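Ribosome-bound RNA was sequenced in 40 libraries. The deposited values are read counts per gene. The submitters' processing notes name STAR 2.0.0e, HTSeq and mm10; neither an annotation nor whether counting used strand is given in the sources used here, so overlapping genes cannot be told apart. A row that names no gene held 0 to 5 counts per library and was left out.

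Counts were tested with edgeR 4.0.16 in R 4.3.3: filterByExpr, TMM scaling, robust quasi-likelihood F tests and Benjamini-Hochberg adjustment over all genes of a fit, with 0.05 as the threshold. Each region had 1 fit of 3 conditions. Control libraries of the 4 regions had another, and all 40 libraries 1 for the interaction. CPM values shown were TMM-scaled over 40 libraries. Transcript lengths and gene positions came from GENCODE M21, promoters from RefSeq (GRCm38.p6). The fits were tested on simulated data.

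Members, gene lists and tests were chosen with earlier results of these data known. Genes named were fixed by role, were isoform sets, or were the called members with the smallest p or the largest change in a comparison (where none was called, the smallest p); other called members were named after their values were seen. Alternatives were RLE scaling, no filter, DESeq2 1.42.0, removal of each library's length trend (a lowess curve of span 0.3), the replicate block, each naming form, all 40 libraries for regions, and leaving out libraries. Replicates are pools of mice, and p-values measure the spread between pools. Samples of the same replicate number deviated together in every pair for resilient against control NAC (correlations 0.62, 0.30 and 0.44), where the block gave 0 calls too.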

Additional observations from a re-analysis of the deposited data

Results flagged for a closer look

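Within the groups of 4 or 5 libraries, 5 of the values examined for members lay far from the rest of their group, by the gap to the nearest library against the range of the group; chance flags about 1 group in 20, and 84 were examined. In the PFC, resilient replicate 4 was high for Atp5f1 at 733.6 CPM and for Ndufv1 at 413.8 CPM, and stressed replicate 5 was low for Atp5s at 56.67 CPM. In the NAC, stressed replicate 4, one of the libraries in which long transcripts were raised, was low for Ndufs3 at 188.3 CPM and for Ndufv2 at 409.6 CPM.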

How the results depend on the processing

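Of the recomputed counts of called members, 302 stayed within 1.5 times the count reported and 60 did not. Many of the 302 come from comparisons with no called member, where a count that stayed at 0 was taken as unchanged. With 1 library left out, the joint test of regions moved in 8 of 11 fits. The NAC moved in 10 of 11, the HIP and PFC in 5 and the CPU in 4. Both PFC stress comparisons moved in 3 of 12. The 609 below likewise include members that were never called. Of the recomputed tests of single members, 609 stayed on their side of the threshold, 166 lost the call and 1 changed sign, Atp5a1 in PFC stressed against resilient within the shorter naming form (−0.11). For PFC stressed against control, 13 members were called, but 83 in the longer naming form alone, 21 without stressed replicates 4 and 5, 81 without replicates 1 to 3, and 24 with the length trend also removed and replicates 4 and 5 left out (chosen after seeing the data). For PFC stressed against resilient, with 6 called, these counts were 83, 25, 79 and 22, and the shorter naming form gave 11. The stressed PFC libraries of the longer naming form are replicates 4 and 5, so its fit and the fit without replicates 1 to 3 share their stressed libraries. The share of all genes called also rose without replicates 4 and 5 or 1 to 3, as given above. The replicate block gave 4 members for PFC stressed against control. Same-numbered samples of 1 region correlated over 0.1 in 13 of 34 pairs, from −0.32 to 0.74. With so few libraries per group, low correlations cannot show that pools were unpaired. The fits across regions had no term for mice shared between regions. Leaving out 1 library at a time gave 1 to 21 for stressed against control and 2 to 7 for stressed against resilient. For the regions, removal of the length trend gave 5 in the joint test, 2 for the PFC, 4 for the HIP and 0 for the NAC. All 40 libraries gave 32, 18, 22, 6 and, for the CPU, 19, and DESeq2 gave 20 in the joint test. Leaving out 1 library gave 4 to 20 in the joint test, 0 to 7 for the PFC, 5 to 16 for the HIP and 0 to 3 for the NAC and CPU. The test of a regional difference in stressed against control gave 1 with the length trend removed and 0 to 1 with 1 library left out. Other causes of these moves were not tested. The longer naming form could not be fitted in the NAC, which then had no residual degrees of freedom, and the CPU has a single form. Low levels such as those of Cox6a2 and Ndufa4l2 rest on few reads.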
